A study of Mus musculus with 5 samples.

Results

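The axoneme is the microtubule core of the sperm flagellum and of motile cilia, and the genes described here encode its parts and the factors that assemble them. They were taken as all protein-coding genes of the mm10 RefSeq annotation whose symbol begins with Cfap, Dnah, Dnai, Dnaaf, Drc or Rsph followed by a number. There were 66 such genes among 21779 protein-coding genes with a position on the chromosomes used: 34 Cfap, 15 Dnah, 7 Dnaaf, 3 Drc and 7 Rsph genes. No symbol had Dnai directly before a number, because the annotation lists the intermediate chain genes as Dnaic1 and Dnaic2. ZFP541, a zinc finger protein of spermatocytes, was mapped by ChIP-seq in pachytene and diplotene spermatocytes enriched by STA-PUT sedimentation from testes of adult C57BL/6 mice. Peak lists came from 2 wild-type (WT) libraries made with an antibody raised against ZFP541 and from 1 library of Zfp541-/- cells made with the same antibody. The series also holds 2 WT input libraries, whose signal was not analysed here. Nothing in the labels says whether the WT libraries came from separate animals, and peak lists hold no expression values with which the labelled cell type could be checked.

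In motile cilia and sperm tails, outer doublet microtubules carry rows of outer and inner dynein arms, the motors that slide neighbouring doublets. Radial spokes and the nexin-dynein regulatory complex pass control signals between the central pair of microtubules and the dyneins, and proteins inside the doublets stabilise them. Dynein arms are preassembled in the cytoplasm by dedicated assembly factors. In the testis the flagellum grows in round spermatids, after the stages sampled here, and transcription factors of the RFX family are known regulators of many ciliary genes.

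At Zfp541 itself, the gene altered in the knockout, the highest fold enrichment was 18.6 in WT replicate 1 and 22.2 in WT replicate 2, and the knockout list had no peak. The lists held 8236, 10371 and 256 peaks in that order, with median folds of 4.29, 4.03 and 3.33. Their lowest −log10 p values were 2.71, 2.54 and 4.47, so the knockout list lacks peaks as weak as the weakest WT ones. Numbers of peaks, and of genes with a peak, are therefore not directly comparable between WT and knockout. Fold enrichment is the authors' value for a peak over the background of their peak caller. Read depth is unknown from peak lists, so a gene without a peak cannot be called unbound.

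Most axoneme genes had no ZFP541 peak, and those with one were spread over several parts of the axoneme. A peak overlapped the gene or the 1 kb beside either end at 16 of 66 genes (24.2%) in WT replicate 1, where 27.8% of all protein-coding genes had one. In WT replicate 2 it was 22 of 66 (33.3%), beside 32.6% of all. In the knockout it was 0 of 66 (exact 95% binomial interval 0 to 5.44%, counting error only), beside 0.220% of all, and the nearest knockout peak to any of the WT regions described here lay 281276 bp away. Both WT shares and the knockout share were therefore near those of all genes.

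Regions found in both WT libraries touched 12 axoneme genes, 7 of them at a gene end. A shared region is the joined extent of peaks of the 2 WT libraries that overlap by at least 1 bp, with no knockout peak overlapping, so parts of it can lie under a peak of 1 library only. Such a region touched 12 of 66 axoneme genes (18.2%, exact 95% interval 9.76 to 29.6%), beside 23.9% of all protein-coding genes, a value inside that interval. A gene end is either annotated edge of the gene, on the side of its start or on its 3′ side. Within 1 kb of a gene end the count was 7 of 66 (10.6%, interval 4.37 to 20.6%), beside 21.0%, a value just above that interval. Inside the body only it was 5 of 66 (7.58%, interval 2.51 to 16.8%), beside 2.94%, a value inside the interval. Among peaks with a −log10 q of 10 or more, the order for the gene or 1 kb turned, with 6 of 66 axoneme genes (9.09%) beside 7.88% of all. The difference from all genes was not tested, since the list was chosen with earlier results of these data known. For 55 genes with a start of transcription in the RefSeq promoter table, 6 (10.9%) had a region within 1 kb of it, beside 21.7% of all such genes. These were Cfap20dc, Cfap57, Cfap99, Cfap298, Dnaaf5 and Drc3.

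Axoneme genes are long, so their shares were also read beside all genes of like length. Their median length was 50997 bp, beside 17217 bp for all protein-coding genes, and 20 of 66 (30.3%) were 100 kb or longer, beside 11.1% of all. Of these 20, 3 had a shared region (15.0%, interval 3.21 to 37.9%), beside 39.5% of all genes of that length, and 1 had it within 1 kb of an end (Cfap20dc, beside 30.2% of all). Of the 46 shorter genes, 9 had a region (19.6%, interval 9.36 to 33.9%), which is near the 22.0% of all shorter genes, and 6 had it at an end (13.0%, interval 4.94 to 26.3%, beside 19.8%). Most of the long axoneme genes encode dynein heavy chains, and whether the length classes differ was not tested.

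Peaks that the other WT library lacked were weak at axoneme genes, as such peaks were over the whole lists. WT replicate 1 had 17 peaks at these genes, with folds of 2.69 to 11.2 and a median of 5.71, and 11 of them (64.7%) overlapped a peak of replicate 2, beside 73.7% of all replicate 1 peaks. WT replicate 2 had 27, with folds of 1.92 to 15.4 and a median of 4.03, and 13 (48.1%) overlapped a peak of replicate 1, beside 54.7% of all. The 6 peaks seen in replicate 1 alone had folds of 2.69 to 4.29, and the 14 seen in replicate 2 alone had 1.92 to 4.03. Their medians were 3.21 and 3.15, beside 3.39 and 3.36 for all peaks that the other library lacked. The 12 shared regions had median folds of 6.64 and 8.38 in the respective libraries, beside 5.36 and 6.04 for all 5325 shared regions. Their median width of 1069 bp was close to the 1061 bp of all shared regions.

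**Figure D1:**
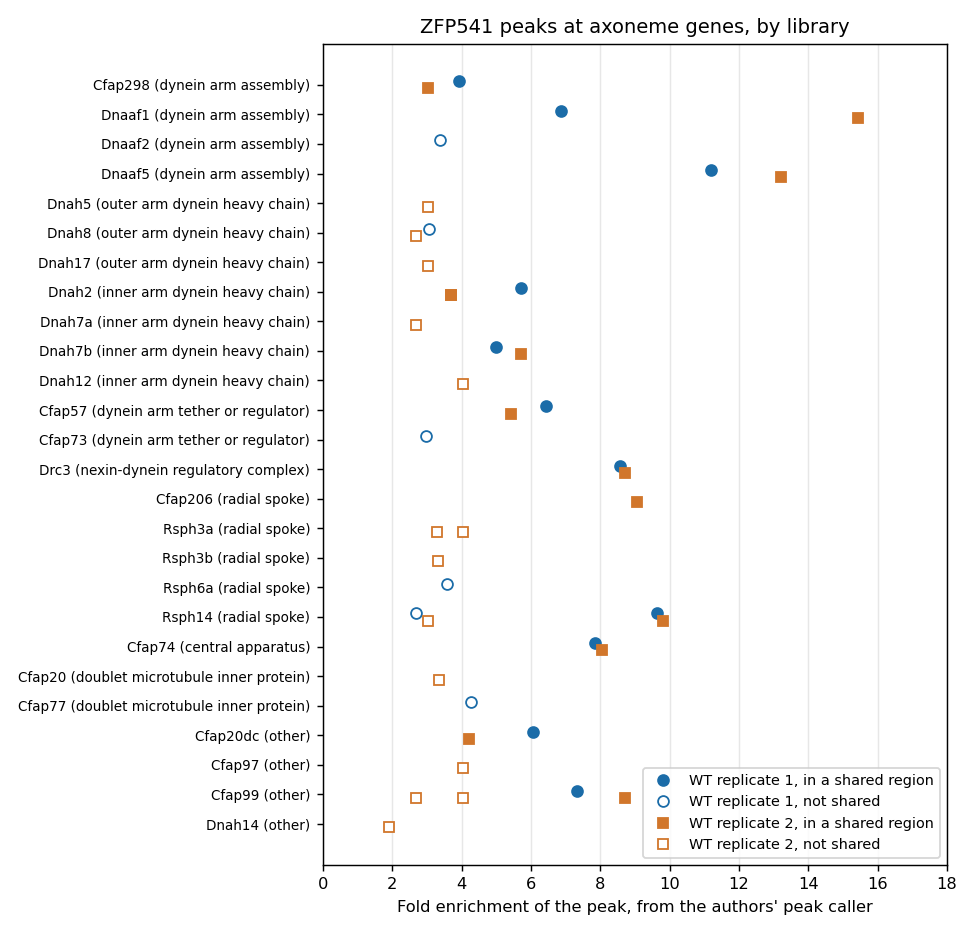
Fold enrichment (horizontal axis, the authors' peak caller value) of every WT peak at the 26 axoneme genes that had one, named with their part of the axoneme; circles are WT replicate 1, squares WT replicate 2, and filled symbols are peaks in a region shared by both libraries. Filled symbols reach 15.4 at Dnaaf1 and 13.2 at Dnaaf5, while every open symbol is at or below 4.29; the replicate 1 peak of the Cfap206 region lies beyond the 1 kb window and is not drawn.

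Start regions of 6 axoneme genes are printed, 2 of them with a shared ZFP541 region at the start and the rest without one. Cfap57, Cfap99, Dnaaf5 and Drc3 also had such a region, but no bases before their starts lay outside annotated genes. The 2 printed, Cfap20dc and Cfap298, had the lowest mean fold ranks of these genes (64.5 and 27.8), so they do not represent them. Each run reads 5′ to 3′ on the gene's own strand and ends at the last base before the gene's annotated edge (RefSeq, GRCm38.p6, the assembly of mm10). Capitals mark GTTGCC or its complement GGCAAC, the core letters of the RFX site, and CCAAT or its complement ATTGG, the NF-Y box. At Cfap298 (chr16:90934850-90935099, minus strand) the peaks of both WT libraries overlap the bases printed, that of replicate 2 with a −log10 q of only 1.01. At Cfap20dc (chr14:8666337-8666540, minus strand) the replicate 2 peak covers them, while the replicate 1 peak ends inside the gene, at base 8666304.
Cfap298: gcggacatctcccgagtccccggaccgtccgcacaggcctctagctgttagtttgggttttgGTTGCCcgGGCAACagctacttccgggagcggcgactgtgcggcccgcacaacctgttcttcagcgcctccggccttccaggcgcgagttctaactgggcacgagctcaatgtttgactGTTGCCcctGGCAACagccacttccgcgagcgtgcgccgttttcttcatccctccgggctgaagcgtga
Cfap20dc: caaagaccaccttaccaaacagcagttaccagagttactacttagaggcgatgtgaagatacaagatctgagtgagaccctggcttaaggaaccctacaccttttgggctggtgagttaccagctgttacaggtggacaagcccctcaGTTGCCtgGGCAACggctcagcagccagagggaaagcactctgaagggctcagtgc
Cfap77 (chr2:29055067-29055316, minus strand) had a peak at its start in WT replicate 1 only, and Rsph3b (chr17:6948357-6948606, minus strand) in WT replicate 2 only.
Cfap77: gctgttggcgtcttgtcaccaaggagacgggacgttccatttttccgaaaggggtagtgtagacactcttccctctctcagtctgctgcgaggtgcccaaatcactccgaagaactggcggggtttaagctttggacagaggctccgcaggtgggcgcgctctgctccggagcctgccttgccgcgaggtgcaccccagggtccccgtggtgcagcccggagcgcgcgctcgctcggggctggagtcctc
Rsph3b: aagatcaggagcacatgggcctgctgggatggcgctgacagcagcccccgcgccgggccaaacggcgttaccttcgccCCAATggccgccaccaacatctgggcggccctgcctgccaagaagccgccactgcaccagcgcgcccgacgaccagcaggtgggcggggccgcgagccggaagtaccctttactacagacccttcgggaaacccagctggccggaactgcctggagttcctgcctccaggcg
Cfap300 (chr9:8042876-8043125, minus strand) and Dnah10 (chr5:124724835-124725084, plus strand) had no peak in any library.
Cfap300: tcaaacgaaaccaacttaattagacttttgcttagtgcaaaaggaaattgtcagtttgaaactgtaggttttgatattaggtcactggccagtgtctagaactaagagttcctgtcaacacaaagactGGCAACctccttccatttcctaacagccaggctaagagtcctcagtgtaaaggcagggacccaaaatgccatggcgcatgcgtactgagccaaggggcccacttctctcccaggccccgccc
Dnah10: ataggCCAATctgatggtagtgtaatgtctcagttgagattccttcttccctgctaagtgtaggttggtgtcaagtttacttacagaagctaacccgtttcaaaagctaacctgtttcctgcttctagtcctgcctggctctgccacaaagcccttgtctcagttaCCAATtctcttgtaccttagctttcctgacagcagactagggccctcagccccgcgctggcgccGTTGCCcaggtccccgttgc

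The Cfap298 promoter holds 4 copies of the RFX letters, arranged as 2 inverted pairs, with first bases 188 and 180, and 69 and 60, bases before the start. Both WT peaks lie over them: the summit was at -214 bases from the start in replicate 1 and -143 in replicate 2. The Cfap20dc promoter has 1 such pair, with first bases 102 and 94 before the start, under the replicate 2 peak alone. Inverted pairs of GTTGCC and GGCAAC with 0 to 3 bases between them were a form searched after the Cfap298 sequence had been seen. They occurred in 2 of 59 axoneme promoters of 300 bases (3.39%), those of Cfap20dc and Cfap298, and in 36 of 21263 coding promoters (0.169%). Because Cfap298 set the search, these shares cannot show a difference between the sets. Of the 5008 coding promoters of genes with a ZFP541 region within 1 kb of the start, 12 held a pair (0.240%). Cfap298 was the 1 promoter among all 21263 with 2 pairs. A match of letters is a description and does not show that a factor binds.

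RFX letters were more frequent in axoneme promoters than in coding promoters as a whole, and coding promoters with a ZFP541 region did not share this. The promoters compared reach from 250 bases before to 50 after each listed start, and both strands were searched. GTTGCC was in 23 of 59 axoneme promoters (39.0%), beside 12.6% of all coding promoters and 11.8% of the 5008 coding promoters of genes with a region within 1 kb of their start. It was in 3 of the 6 axoneme promoters with a region (Dnaaf5, Cfap20dc and Cfap298) and in 20 of the other 53. The longer form GTTGCCAT, which contains the first, was in 7 axoneme promoters (11.9%), beside 1.18% of all, and in none of the 6 with a region. These 7 belong to Cfap44, Cfap74, Cfap97d2, Cfap161, Dnaaf2 and Dnaaf4, since Cfap74 has more than 1 listed start.

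Letters of 5 other factor sites were also counted. AACTG, a core of the site of A-MYB, a driver of pachytene transcription, was in 39 of 59 axoneme promoters (66.1%), beside 41.7% of all and 30.7% of those with a region. The NF-Y box CCAAT was in 24 (40.7%), beside 38.2%, the NRF1 core GCGCATGC in 4 (6.78%), beside 3.52%, and the forkhead site GTAAACA in 3 (5.08%), beside 3.01%. The cyclic AMP response element TGACGTCA was in 1 (1.69%), that of Dnah6, beside 2.23%. Axoneme promoters of genes with a region near the start held a median of 24.5 CpG dinucleotides in 300 bases (12 to 41), and the other axoneme promoters 12. Over all coding promoters these medians were 27 with a region and 8 without, so CpG number moved with the regions in both sets. Its part in the result was not tested.

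**Figure D2:**
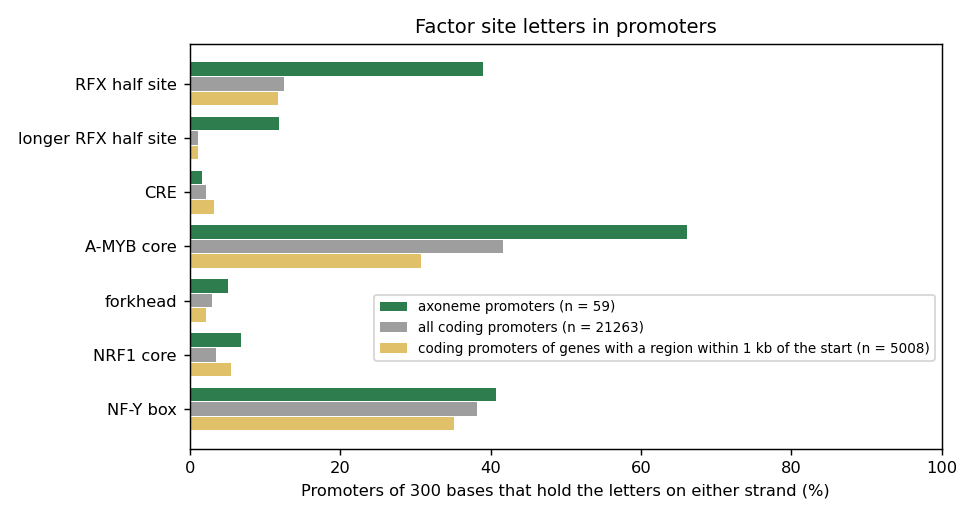
Share of 300-base promoters (horizontal axis, percent) that hold the letters of each factor site on either strand, for 59 axoneme promoters, all 21263 coding promoters and the 5008 coding promoters of genes with a ZFP541 region within 1 kb of the start. The RFX letters GTTGCC stand at 39.0% in axoneme promoters, 12.6% in all and 11.8% in those with a region.

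Dynein arm assembly factor genes had 3 of the 7 regions at gene ends, among them the highest and the lowest mean fold rank of the 12 shared regions. Of 9 such genes, 3 had a region at an end (Dnaaf1, Dnaaf5 and Cfap298), beside 21.0% of all protein-coding genes. In groups this small the counts only list genes, and a difference from all genes was not tested. Of the rest, 1 had a replicate 1 peak alone (Dnaaf2, fold 3.37) and 5 had no peak (Dnaaf3, Dnaaf4, Dnaaf6, Dnaaf6b and Cfap300). At Dnaaf5, which encodes a HEAT repeat assembly factor, folds were 11.2 and 13.2 in WT replicates 1 and 2 (chromosome 5, 139149904 to 139151568). These folds stood at percentiles 94.7 and 96.6 of all peaks of their own lists, with a mean of 95.7. The replicate 1 summit lay 505 bp inside Dnaaf5 from its start and 37 bp from the nearest start of Prkar1b, a regulatory subunit gene of protein kinase A on the opposite strand. The region thus covers the starts of both genes.

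Dnaaf1, which encodes a leucine-rich repeat assembly factor, had folds of 6.86 and 15.4 (chromosome 8, 119574286 to 119575531), at percentiles 79.6 and 98.5 of their lists. Summits of the 2 libraries were 24 bp apart. The replicate 1 summit was 52 bp from an annotated edge of Dnaaf1, a gene without a start in the promoter table. It was 8 bp from a start of the neighbouring gene Hsdl1. Cfap298 had the weakest shared region, with folds of 3.93 and 3.02 (chromosome 16, 90934646 to 90935219), at percentiles 41.3 and 14.3. Its −log10 q values were 2.38 and 1.01, so the replicate 2 peak has a q-value above 0.05, and the gene drops out when such peaks are left out.

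None of the 15 dynein heavy chain genes, which encode the motor subunits, had a shared region at a gene end. Of all protein-coding genes 21.0% had one, and of those of 100 kb or longer 30.2%. The difference was not tested, and the groups by arm are too small for their counts to be read against these shares. Of 5 outer arm genes none had a shared region: Dnah9 and Dnah11 had no peak, Dnah5 and Dnah17 each had a replicate 2 peak of fold 3.02 deep in the gene, and Dnah8 had a peak in each library at different places. The Dnah8 peak of replicate 1 (fold 3.05) lay at the start, with its summit at -122 bp from it, and that of replicate 2 (fold 2.69) lay 111995 bp inside the gene. Dnah8 and Dnah17 encode the outer arm motors of the sperm tail. Among 9 inner arm genes, Dnah2 and Dnah7b had a shared region in the body, Dnah7a (2.69) and Dnah12 (4.03) had a replicate 2 peak alone, and Dnah1, Dnah3, Dnah6, Dnah7c and Dnah10 had none. Dnah14, which was grouped with neither arm, had a replicate 2 peak of fold 1.92.

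The Dnah2 region lay 2550 bp inside the gene from its start by the replicate 1 summit (chromosome 11, 69545593 to 69546853). It joined 1 replicate 1 peak of fold 5.71 with 2 replicate 2 peaks of fold 3.69, whose strongest summit was 694 bp from that of replicate 1. The Dnah7b region lay 22162 bp inside the gene (chromosome 1, 46088716 to 46089430), with folds of 5.0 and 5.71 and summits 46 bp apart. No other protein-coding gene end lay within 100 kb of it, the nearest being that of Slc40a1 at 162483 bp. Dnah7a, Dnah7b and Dnah7c are close copies: local alignments of their 300-base start regions had 80.5% to 88.4% identity over 207 to 300 columns. Sequences under the Dnah7a and Dnah7b peaks, which lie inside the genes, were not compared. Reads of such copies can be shared, so which copy a peak belongs to is uncertain.

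Genes for the proteins that position or regulate the arms had 1 shared region in 6, beside 23.9% of all protein-coding genes. Cfap57, needed for placing inner arm dyneins, had folds of 6.43 and 5.43 (chromosome 4, 118620795 to 118621709), at percentiles 75.9 and 70.7. Its summits lay at -157 and -215 bp from the start, and the region lies over Ebna1bp2, a ribosome biogenesis gene on the opposite strand whose span begins inside the annotated span of Cfap57. Cfap73 had a replicate 1 peak of fold 2.98, and Cfap43, Cfap44, Cfap70 and Cfap100 had no peak. In the nexin-dynein regulatory complex, Drc3 had a region and Drc1 and Drc7 had no peak. Drc3 folds were 8.57 and 8.71, at percentiles 87.5 and 87.6 (chromosome 11, 60352347 to 60353243), and the summits were 52 bp apart. The replicate 1 summit was 27 bp from the annotated edge of Drc3 on its start side and 51 bp from the start of Tom1l2 on the opposite strand. From the listed start of Drc3 the summits lay at -526 and -578 bp.

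Of 9 radial spoke genes, 2 had a shared region, beside 23.9% of all protein-coding genes. Neither region had its summit within 1 kb of the spoke gene's end. Rsph14 had folds of 9.64 and 9.80 (chromosome 10, 74966643 to 74967954), at percentiles 91.0 and 91.3. The replicate 1 summit was 65274 bp from the nearest listed start of Rsph14 and 9802 bp inside its 3′ edge. It was 102 bp from an end of Gnaz, a G protein alpha subunit gene that lies within the span of Rsph14. Rsph14 also had a weak peak in replicate 1 alone (fold 2.69) and another in replicate 2 alone (fold 3.02). At Cfap206, a gene of the spoke base, the folds were 5.42 and 9.06 (chromosome 4, 34686730 to 34687786). The region lay beyond the 3′ end of Cfap206, with summits 43126 and 43109 bp from its listed start. The replicate 2 peak came within 788 bp of the gene, and the replicate 1 peak ended 1139 bp from it. The replicate 1 summit was 358 bp from a start of Slc35a1, a sugar nucleotide transporter gene. Cfap206 therefore counts only because the joined region reaches the window, and it drops out with the 500 bp flank or by summit.

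The other spoke genes had weak peaks or none. Rsph3a and Rsph3b, 2 copies of the spoke stalk gene on chromosome 17, each had a replicate 2 peak at the start, of fold 3.29 and 3.32, and no replicate 1 peak. Their listed 300-base start regions aligned over only 19 bases, while the genes themselves may share reads. Rsph3a had a further replicate 2 peak of fold 4.03 inside the gene, and Rsph6a a replicate 1 peak of 3.57. Rsph1, Rsph4a, Rsph9 and Cfap61 had no peak.

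Central apparatus genes had 1 shared region in 7, beside 23.9% of all protein-coding genes. That region lay in Cfap74, with folds of 7.86 and 8.06 (chromosome 4, 155397175 to 155398745), at percentiles 84.7 and 85.5. The replicate 1 summit was 6006 bp inside Cfap74 and 7 bp from an end of Gabrd, a GABA receptor subunit gene. Cfap46, Cfap47, Cfap54, Cfap65, Cfap69 and Cfap221 had no peak. Genes for doublet microtubule inner proteins had no shared region in 7, a count too small to be read against the share of all genes. Cfap77 had a replicate 1 peak of fold 4.29 with its summit 4 bp inside its start, and Cfap20 a replicate 2 peak of 3.36. Cfap45, Cfap52, Cfap53, Cfap126 and Cfap161 had no peak.

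Of the remaining genes, Cfap20dc and Cfap99 had a shared region. Cfap20dc had folds of 6.07 and 4.23 (chromosome 14, 8665618 to 8666698), with summits 172 and 106 bp inside the gene from its start. The nearest other start was that of a long non-coding RNA gene, 4930455B14Rik, at 272 bp, and no other protein-coding gene end lay nearer than 287355 bp. Cfap99 had folds of 7.32 and 8.71 (chromosome 5, 34287937 to 34288840), with the replicate 1 summit at -305 bp from its listed start, 1633 bp inside its annotated span and 36 bp from the start of Zfyve28 on the opposite strand. At Cfap99, replicate 2 alone also had a peak of fold 4.03 (34287039 to 34287380), within 1 kb of the gene's annotated edge. Another Cfap99 peak of replicate 2 alone, of fold 2.69, lay farther inside. Cfap97 had a replicate 2 peak of fold 4.03, and Cfap36, Cfap58, Cfap97d1, Cfap97d2, Cfap157, Cfap299 and Cfap410 had no peak.

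Many of the regions at axoneme genes were at the ends of other genes. For 6 of the 12, those of Cfap74, Cfap99, Cfap206, Dnaaf1, Dnaaf5 and Rsph14, the replicate 1 summit was nearer to an end of another protein-coding gene than to an end of the axoneme gene. Over all 5897 pairs of a gene and a shared region this was so for 973 (16.5%). At Drc3 the summit was 27 bp from the axoneme gene's end and 78 bp from that of Tom1l2, and at Cfap57 123 bp from its own end and 143 bp from that of Ebna1bp2. The replicate 1 summit was more than 1 kb from any end of another coding gene at Cfap20dc, Cfap298 (1029 bp), Cfap206 (1033 bp), Dnah2 and Dnah7b. The 1 kb windows of 32 of 66 axoneme genes (48.5%) ran into those of a neighbouring protein-coding gene, beside 32.2% of all genes. Without such genes 4 of 34 axoneme genes (11.8%) had a shared region, beside 20.3% of all, and 1 of 34 (2.94%, Cfap20dc) had it at an end, beside 17.5%. Peak lists do not say which gene of a pair a region belongs to.

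**Figure D3:**
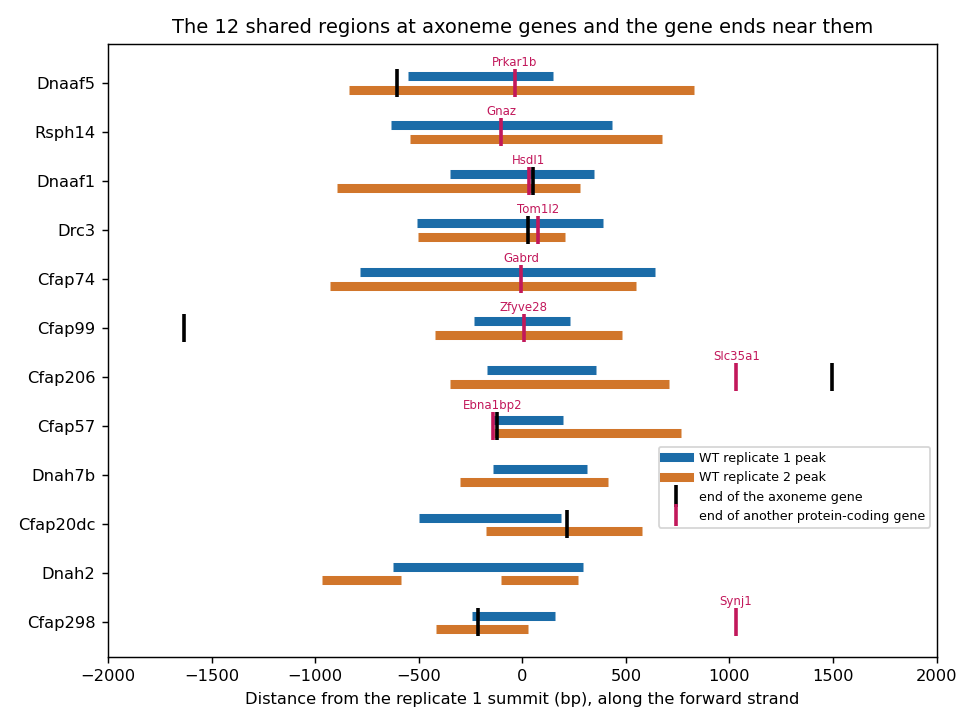
Extent of the WT replicate 1 and replicate 2 peaks of the 12 shared regions at axoneme genes, as distance in bp from the replicate 1 summit along the forward strand, with ends of the axoneme gene in black and of other protein-coding genes in magenta. Gene ends more than 2 kb from the summit are not drawn; an end of another gene lies within 110 bp of the summit at Dnaaf5, Rsph14, Dnaaf1, Drc3, Cfap74 and Cfap99.

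Shares with a shared region ran from 5.56% to 61.9% over 8 lists of related genes, the last being that of transcription regulator genes. Counts here are genes with a shared region in the body or within 1 kb, to be read beside the 23.9% of all genes, and the lists were chosen with earlier results of these data known. Of 18 further central pair genes 1 had a region (5.56%), Spag6 with folds of 5.36 and 5.04. Of 22 further genes of the regulatory complex, spokes and their spacing 2 had one (9.09%), Iqcd (6.43 and 4.36) and Ccdc40 (3.21 and 4.02). Of 22 tektin and doublet inner protein genes 3 had one (13.6%), led by Ccdc105 (11.1 and 10.1). Of 25 fibrous sheath and outer dense fibre genes 3 had one: Odf2 (5.24 and 5.71), Tssk4 (4.29 and 3.69) and Gapdhs (2.90 and 3.69), the last a sperm glycolytic enzyme.

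Dynein genes outside the symbol rule were similar. Of 20 docking, light chain and further assembly genes 4 had a region, led by Dynll2 (10.5 and 10.3) and Lrrc56 (6.07 and 8.37), and of 20 cytoplasmic dynein and dynactin genes 2 had one, Pafah1b1 (7.5 and 7.72) and Bicd2 (2.83 and 3.18). The intermediate chain gene Dnaic1 had no peak, and Dnaic2 had a replicate 2 peak of fold 5.53 that replicate 1 lacked. Of 29 intraflagellar transport genes, whose products carry cargo along the growing axoneme, 8 had a region (27.6%), led by Ift140 (11.4 and 14.8), the motor gene Kif17 (10.0 and 11.7) and Ift74 (8.33 and 10.4). The 1 kb windows of Ift140, Kif17 and Ift74 run into those of a neighbouring gene, so their regions may belong to the neighbour.

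Of 21 genes for regulators of ciliary or late spermatogenic transcription, 13 had a shared region (61.9%), 12 of them at an end (57.1%, beside 21.0% of all). Mcidas, a switch gene of multiciliated cells, had its strongest region at 14.7 and 12.5, and E2f5, whose product partners with it, had 12.9 and 14.1. Rfx3 had 11.8 and 8.39 inside the gene. Rfx7 (6.43 and 6.38), Rfx4 (5.0 and 5.13) and Foxj1 (5.0 and 4.70), the forkhead regulator of motile cilia, also had a region at an end. These 3 were named after their values were seen, and list genes without a region are not named. E2f5 and Foxj1 have 1 kb windows that run into those of a neighbouring gene. The list mixes ciliary regulators with general ones such as Tfdp1 and with spermatocyte regulators such as Mybl1. None of the genes in these 8 lists had a knockout peak, beside 0.220% of all genes, so this count shows no difference from the background.

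**Figure D4:**
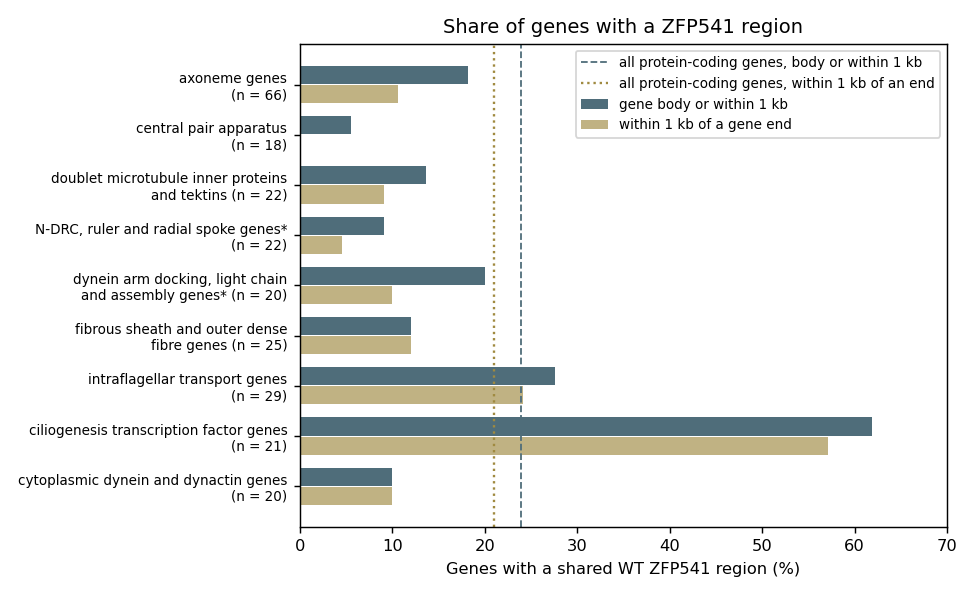
Share of genes (horizontal axis, percent) with a ZFP541 region shared by both WT libraries, in the gene or within 1 kb (dark bars) and within 1 kb of an end (light bars), for the 66 axoneme genes and 8 related lists (an asterisk marks lists of genes with other symbols). Dashed and dotted lines give the same over all protein-coding genes, 23.9% and 21.0%; the axoneme genes stand at 18.2% and 10.6% and the transcription factor genes at 61.9% and 57.1%.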

How the data were processed

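Peak lists of 2 WT and 1 knockout ChIP-seq libraries were used, 1 list per library. Tools named per the submitters' processing notes are MACS2 2.2.6, which makes lists of this format, and the mm10 build, with cutadapt 2.6, Bowtie2 2.3.5, deepTools 3.5.0, Picard and SAMtools 1.10. The sources used here give no settings, control or threshold. The deposited lists give, per peak, a fold enrichment (a ratio over background), −log10 p, −log10 q, a summit offset and a score, which equals −log10 q times 10 without decimals. These are the authors' values and only describe or rank peaks within a list. The lowest −log10 p was 2.71 and 2.54 in the WT lists and 4.47 in the knockout list, and 15 of 17 and 17 of 27 WT peaks at axoneme genes reached the latter.

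Genes came from RefSeq tables of GRCm38.p6, the assembly of mm10, without 108 protein-coding entries that lie before 3 Mb and carry scaffold coordinates. The promoter table gave start, strand and sequence for 55 of the 66 genes. No test was run: there is 1 knockout library and no depth. Genes and lists were chosen with earlier results of these data known. All axoneme genes are accounted for; up to 3 genes per related list were to be named by mean percentile rank of fold over the WT libraries, and further regulators of cilia were named after their values were seen. Paralog starts were compared by local alignment. Computation used Python 3.11.15 with pandas 2.3.3, numpy 2.4.6 and scipy 1.17.1, and plots used matplotlib 3.10.9. On simulated data the overlap code found all 4000 planted intervals among 21779 genes.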

Additional observations from a re-analysis of the deposited data

How the results depend on the processing

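No paired analysis was possible because no result comes from a test and the knockout has 1 library. Counts of axoneme genes with a shared region (12) and with one at a gene end (7), and of all protein-coding genes (5213 and 4573), were recomputed under 11 other settings and 1 more chosen after seeing the data, which kept WT peaks reaching the smallest −log10 p of any knockout peak. With a reciprocal overlap of at least 50% the axoneme counts were 7 and 3 (10.6% and 4.55%), and those of all genes 3807 and 3328 (17.5% and 15.3%). Keeping peaks with −log10 q of 5 or more, all genes gave 2992 and 2579 (13.7% and 11.8%) and axoneme genes 8 and 5 (12.1% and 7.58%). With 10 or more, axoneme genes gave 6 and 3 (9.09% and 4.55%) and all genes 1717 and 1476 (7.88% and 6.78%), so the first share passed that of all genes. Leaving out genes whose windows run into a neighbour's, the counts were 4 and 1 of 34 axoneme genes and 2998 and 2579 of 14769 genes. With either WT library left out, axoneme genes numbered 16 to 22 and, at ends, 8 to 10, and all genes 6045 to 7096 and 5163 to 6054. With replicate 2 alone, 22 of 66 axoneme genes (33.3%) stood beside 32.6% of all, and at ends 15.2% stood beside 27.8%. The other settings left each count within 1.5 times, and Dnaaf1, Drc3, Cfap74, Cfap99 and Rsph14 kept a region under reciprocal overlap and at both stricter q-values. Depth is unknown.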
